A study of Mus musculus with 27 samples.

Results

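The 10 genes described here encode the adhesion molecules by which blood leukocytes hold on to a vessel wall and enter a tissue, followed in the ovaries of young and aged mice. They are the endothelial ligands Icam1, Icam2 and Vcam1, the selectins Sele and Selp with the selectin ligand Selplg, the β2 integrin chain Itgb2 with its partners Itgal and Itgam, and the α4 integrin chain Itga4. They were taken by gene symbol from a table of 51789 gene IDs counted in 27 ovary libraries. The set was chosen with earlier results of these data known. In experiment 1 there were 5 untreated Young mice, 4 untreated Aged mice and a further 4 Aged mice that received TRi-1, which is an inhibitor of thioredoxin reductase 1. In experiment 2 there were 5 untreated Young mice, 5 untreated Aged mice and a further 4 Aged mice given Auranofin, a gold compound that inhibits thioredoxin reductases. No transgene or deletion is named, and strain, ages, doses and times of treatment are not given in the sources used here. The tissue is whole ovary, so fewer cells of a type and less RNA per cell cannot be told apart.

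Leukocytes leave the blood in steps. Selectins on activated endothelium (Sele and Selp) catch carbohydrate-bearing ligands such as PSGL-1, the product of Selplg, so that the cell rolls along the wall. Chemokine signals then open the leukocyte integrins, and αLβ2 (Itgal with Itgb2) and αMβ2 (Itgam with Itgb2) grip ICAM-1 and ICAM-2, while α4β1 grips VCAM-1. Icam1 and Vcam1 are induced by inflammatory cytokines, largely through NF-kB, and are also made outside the endothelium, whereas Icam2 is a constitutive gene of endothelium. In the ovary, leukocytes enter at ovulation and during regression of the corpus luteum.

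In the GRCm38 annotation the ligand genes are Icam1 (ENSMUSG00000037405, chr9:21015985-21028817, plus strand), Icam2 (ENSMUSG00000001029, chr11:106377656-106388075, minus strand) and Vcam1 (ENSMUSG00000027962, chr3:116109949-116129688, minus strand). Sele (ENSMUSG00000026582, chr1:164048234-164057677, plus strand) and Selp (ENSMUSG00000026580, chr1:164115264-164150026, plus strand) lie near each other, and Selplg (ENSMUSG00000048163) is at chr5:113818536-113832644 on the minus strand. The β2 family genes are Itgb2 (ENSMUSG00000000290, chr10:77530252-77565708), Itgal (ENSMUSG00000030830, chr7:127296260-127335138) and Itgam (ENSMUSG00000030786, chr7:128062640-128118491), all on the plus strand. Itga4 (ENSMUSG00000027009) is at chr2:79255426-79333123 on the plus strand. Itgam overlaps Gm49368 on its own strand, which had 481 counts over the 27 libraries, and Itga4 overlaps Cerkl on the opposite strand, which had 309. Whether the counting used strand is not stated, so counts of such pairs may be split between them. The genes that overlap Icam1, Vcam1 and Selp had between 0 and 39 counts each.

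RefSeq promoter windows of the GRCm38.p6 build, from 250 bases before to 50 bases after the start of a gene, were at hand for 5 of the 10 genes (Icam1, Sele, Selp, Itgam and Itga4). Those of Icam1 and Itgam are shown because both genes were higher in aged ovaries of experiment 1, and that of Sele because it was nearly silent although it is a textbook cytokine-induced gene like Icam1. All are written 5′ to 3′ in the gene's direction. In Icam1 (chr9:21015690-21015989, plus strand) and Sele (chr1:164047984-164048283, plus strand) capitals mark GGNNNTTCC, a loose spelling of one part of the NF-kB site, and TATAAA. In Itgam (chr7:128062390-128062689, plus strand) capitals mark GAGGAA, the core bound by the myeloid factor PU.1, on either strand.
Icam1: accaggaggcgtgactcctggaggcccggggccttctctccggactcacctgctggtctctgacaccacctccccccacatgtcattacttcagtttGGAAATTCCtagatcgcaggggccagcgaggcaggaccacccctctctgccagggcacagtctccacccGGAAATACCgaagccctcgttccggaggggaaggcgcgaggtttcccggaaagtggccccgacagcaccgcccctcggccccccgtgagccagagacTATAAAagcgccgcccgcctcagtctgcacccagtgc
Sele: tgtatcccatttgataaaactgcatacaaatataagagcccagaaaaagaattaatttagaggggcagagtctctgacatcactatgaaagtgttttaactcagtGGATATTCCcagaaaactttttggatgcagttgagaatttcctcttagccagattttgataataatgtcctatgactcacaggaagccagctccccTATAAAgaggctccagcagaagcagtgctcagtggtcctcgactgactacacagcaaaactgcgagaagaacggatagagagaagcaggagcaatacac
Itgam: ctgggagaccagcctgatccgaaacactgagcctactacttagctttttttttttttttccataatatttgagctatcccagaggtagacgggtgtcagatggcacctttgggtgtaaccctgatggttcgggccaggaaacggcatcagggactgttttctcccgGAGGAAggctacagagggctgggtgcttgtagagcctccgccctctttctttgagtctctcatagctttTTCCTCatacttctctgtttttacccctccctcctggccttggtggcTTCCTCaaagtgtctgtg
GGNNNTTCC, searched on both strands and chosen after these windows had been read, occurred 3 times in Icam1, where 2 of the matches are the same palindromic stretch read on both strands, and 1 time each in Sele and Selp. It was found in 18.5% of 32851 promoter windows of the same length. The stricter NF-kB consensus, held by 11.2% of the windows, matched none of the 5. TATAAA was found in Icam1 and Sele and in 13.6% of all windows. In Icam1 it begins at base 14 after the start used for the window. GAGGAA or its reverse complement occurred 3 times in Itgam and 1 time in Sele, against 28.3% of windows with at least 1 match. The window of Itga4, a gene also higher in aged ovaries of experiment 1, held 0 matches to each of these motifs. A match is a run of letters and no evidence of binding, and no match says only that these letters are not in this window.

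Library totals ran from 6460903 to 14814381 counts, and the aged groups were sequenced more deeply than the young ones in both experiments. Levels are in CPM, counts scaled to a common library size by TMM, and a group is given by its mean ± SD. Changes were fitted with edgeR on the log2 scale and carry their standard error (SE), with p adjusted over all genes tested and a threshold of 0.05. A library was said to stand apart when its median correlation with its own group, over 11344 genes, was under 0.8. This held for young replicate 3 of experiment 2 (0.797) and Auranofin replicate 4 (0.797). In that young library the oocyte markers summed to 3.54 CPM against 21.7 to 98.7 CPM in the other 4, and the granulosa markers to 40.6 CPM against 195 to 276 CPM. The ovary label was checked on the same lists: stromal markers summed to between 1782 and 5292 CPM in the untreated libraries, and oocyte markers were 4 of 4 tested lower in aged ovaries of both experiments. Oviduct epithelium markers summed to between 671 and 3143 CPM in the untreated libraries, and whether oviduct was attached was not tested.

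Over the whole family, 7 of the 9 genes that could be tested rose with age in experiment 1, where 34.9% of 16028 genes passed in either direction and 18.5% were higher. In experiment 2, 5 of 9 rose, where 10.5% of 16309 genes passed and 5.86% were higher. No member fell in either, where 16.4% and 4.59% of genes did. Icam1, Vcam1, Selplg, Itgb2 and Itgal passed in both experiments, Itgam and Itga4 in experiment 1 only by this test, and Icam2 and Selp in neither. The test of the difference between experiments, given further on, passed for none of them. The median log2 fold change over the 9 genes was 2.43 in experiment 1 and 2.02 in experiment 2, beside 0.02 and -0.03 over all genes tested. Groups did not overlap, with every aged library above every young one, for the same 7 genes in experiment 1 (14% of all genes) and the same 5 in experiment 2 (6.46%). Sele, with 14 counts in all, was too low to be tested.

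**Figure D1:**
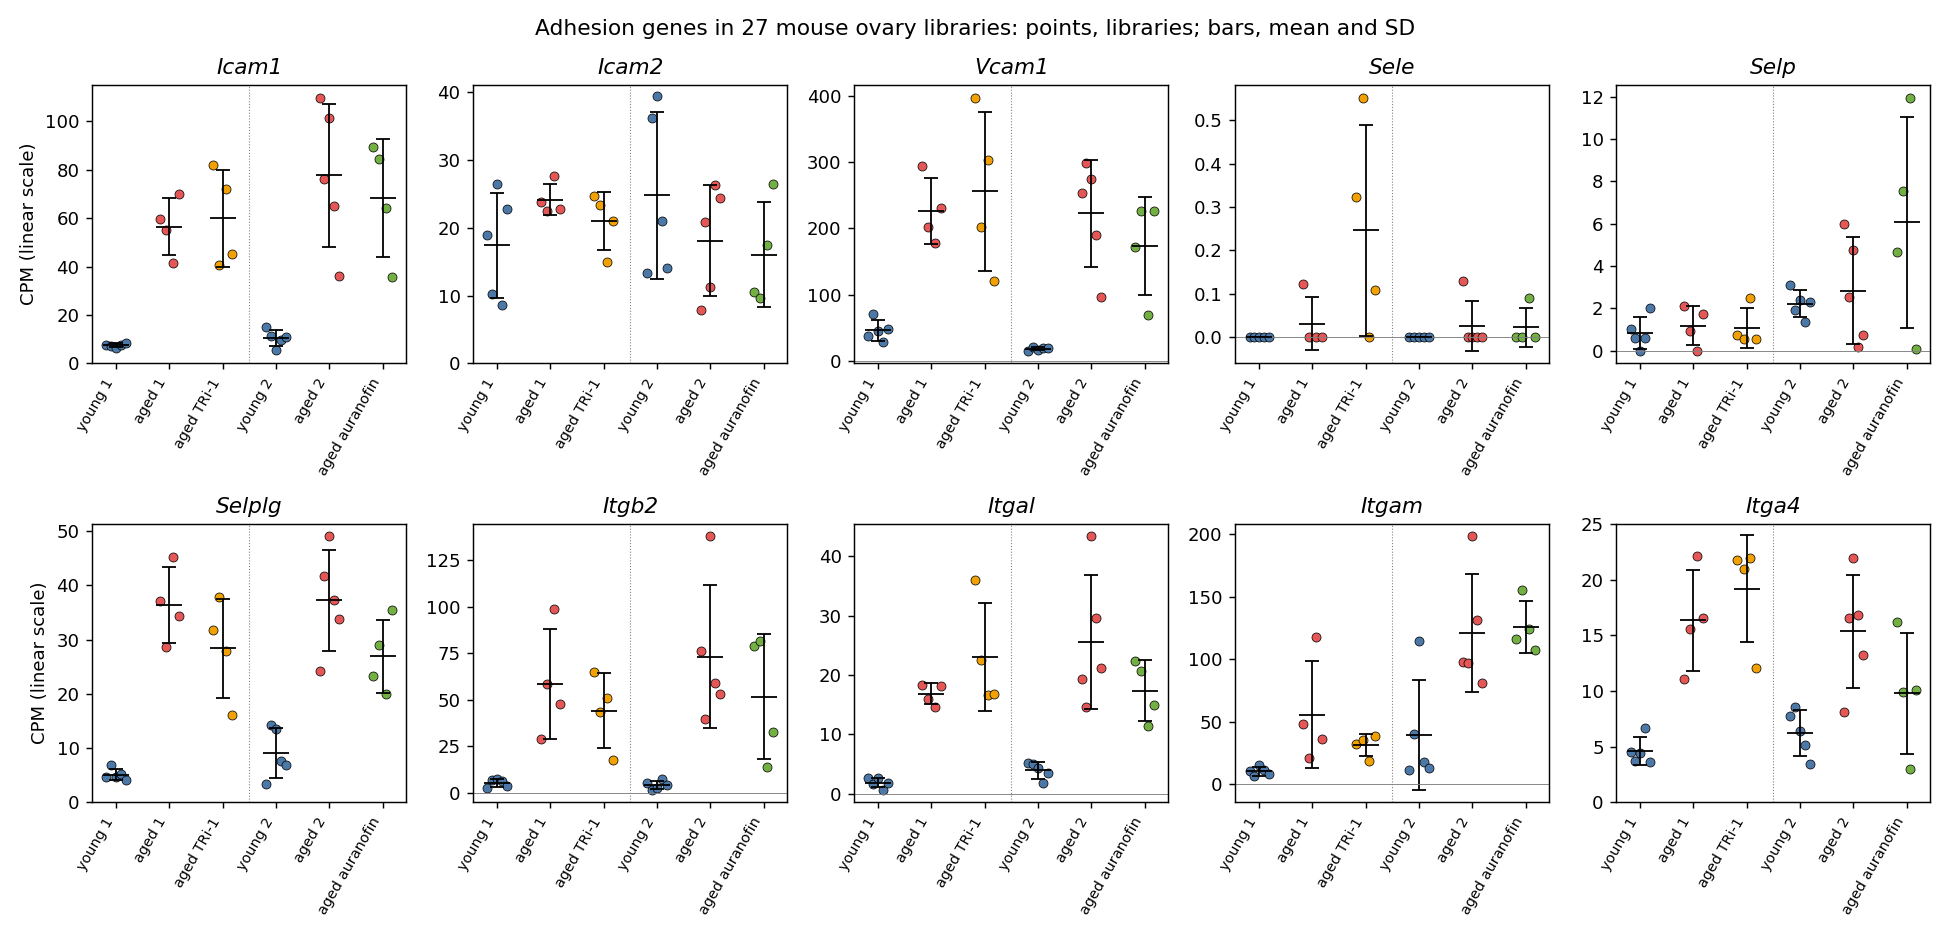
CPM (linear vertical axis, its own scale for each gene) of the 10 adhesion genes in each of 27 ovary libraries. Points are libraries in the 6 groups, 1 and 2 are the experiments, bars are mean and SD, and the dotted line parts the experiments. Icam1, Vcam1, Selplg, Itgb2 and Itgal sit low in both young groups and higher in the aged ones, while Icam2 spreads over one range in all 6 groups.

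Icam1 encodes the inducible ligand of the β2 integrins. Its level was 7.58, 7.13, 6.49, 7.65 and 8.61 CPM in the young libraries of experiment 1, and 59.5, 55.0, 41.6 and 70.1 CPM in the aged ones. The young values lay within a narrow band and the lowest aged library stood far above it. The change was 2.93 ± 0.23 on the log2 scale, 7.61-fold (adjusted p = 1.87e-06). In experiment 2 the young libraries had 15.04, 11.4, 5.71, 9.62 and 11.1 CPM and the aged ones 109.9, 76.3, 101.3, 64.9 and 36.2 CPM. Again no library overlapped, and the change was 2.88 ± 0.35, 7.35-fold (adjusted p = 0.000185). The aged libraries of experiment 2 spread more widely than those of experiment 1, with an SD of 29.5 CPM against 11.8 CPM.

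Vcam1, the ligand of α4 integrins, was 37.7, 70.1, 45.1, 28.7 and 48.3 CPM in young ovaries of experiment 1. The aged ovaries had 294.5, 203, 177 and 231 CPM. Every aged value exceeded every young one, by 2.31 ± 0.31 on the log2 scale, 4.97-fold (adjusted p = 4.75e-05). In experiment 2 the young libraries had 15.1, 20.4, 16.8, 19.2 and 20.1 CPM and the aged ones 253, 299, 274, 190.1 and 96.3 CPM. The change there was 3.60 ± 0.35, 12.1-fold (adjusted p = 5.6e-05). Young ovaries of experiment 2 (18.3 ± 2.29 CPM, n = 5) lay below all young ovaries of experiment 1 (46.0 ± 15.4 CPM, n = 5), whereas the aged means were 223 and 226 CPM. The experiment and the handling of its mice cannot be told apart.

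Icam2, the constitutive endothelial ligand of the same integrins, did not pass the test in either experiment. Its values were 19.0, 10.2, 26.5, 8.61 and 22.8 CPM in young and 23.8, 22.6, 27.6 and 22.8 CPM in aged ovaries of experiment 1. The aged values sat in the upper part of the young range and just above it, and the change was 0.48 ± 0.30 (95% interval -0.15 to 1.12, adjusted p = 0.226). Young libraries of experiment 2 had 13.3, 36.2, 39.5, 20.998 and 14.03 CPM and the aged ones 7.89, 20.8, 11.2, 26.3 and 24.4 CPM. The ranges overlapped and the change had the other sign, -0.46 ± 0.41 (95% interval -1.33 to 0.41, adjusted p = 0.56).

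Among the selectins, Sele (E-selectin, made by cytokine-stimulated endothelium) had no count in 21 of 27 libraries. The young groups had 0 counts in each experiment, which allows levels up to 0.0835 CPM in experiment 1 and 0.0625 CPM in experiment 2 by a floor of 3 counts over a group. The aged untreated groups had 1 and 2 counts, the Auranofin group 1, and the TRi-1 group 10, in 3 of its 4 libraries (0.322, 0.553, 0 and 0.109 CPM). No difference was tested at this depth.

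Selp (P-selectin, stored in platelets and endothelium) was low and scattered. Young ovaries of experiment 1 had 1.02, 0.62, 0, 0.598 and 2.04 CPM and aged ones 2.09, 0.918, 0 and 1.76 CPM. In experiment 2 the young libraries had 3.11, 1.94, 2.40, 1.36 and 2.30 CPM and the aged ones 6.01, 2.54, 4.76, 0.181 and 0.738 CPM, so that the aged values lay on both sides of the young range. The changes were 0.47 ± 0.98 (adjusted p = 0.742) and 0.37 ± 0.86 (adjusted p = 0.856), with 95% intervals of -1.61 to 2.55 and -1.45 to 2.19. Limma-voom with quality weights turned both signs, to -0.18 and -0.32.

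Selplg, which encodes the leukocyte ligand that both selectins bind, rose in both experiments. It was 4.64, 6.82, 4.63, 5.14 and 4.09 CPM in young and 37.2, 28.6, 45.3 and 34.3 CPM in aged ovaries of experiment 1. The groups were far apart, with a change of 2.85 ± 0.26, 7.23-fold (adjusted p = 3.24e-06). In experiment 2 the young values were 3.41, 14.3, 13.5, 7.58 and 6.89 CPM and the aged ones 24.3, 41.7, 49.1, 37.3 and 33.7 CPM. The gap was smaller but no library overlapped, and the change was 2.02 ± 0.34, 4.07-fold (adjusted p = 0.00172).

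Itgb2 encodes the β2 chain shared by αLβ2 and αMβ2, and it had the largest fitted age change of the 9 genes in each experiment. Young ovaries of experiment 1 had 2.71, 6.82, 7.60, 6.22 and 3.65 CPM and aged ones 29.1, 58.2, 98.8 and 47.7 CPM. The change was 3.46 ± 0.42, 11-fold (adjusted p = 1.95e-05). Libraries of experiment 2 had 5.31, 1.66, 2.28, 7.29 and 3.91 CPM in young and 76.0, 39.8, 137.8, 58.8 and 53.0 CPM in aged ovaries. No young library came near the aged range, and the change was 4.15 ± 0.55, 17.8-fold (adjusted p = 0.000309).

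Itgal, the αL chain that is highest on lymphocytes, was 2.71, 1.71, 2.60, 0.717 and 1.75 CPM in young and 18.4, 16.0, 14.7 and 18.2 CPM in aged ovaries of experiment 1. The 4 aged libraries agreed closely, with a change of 3.16 ± 0.35, 8.94-fold (adjusted p = 1.09e-05). Experiment 2 had 5.21, 4.99, 4.34, 1.75 and 3.57 CPM in young and 19.4, 14.6, 43.3, 29.5 and 21.2 CPM in aged ovaries. The change was 2.68 ± 0.36, 6.43-fold (adjusted p = 0.000421), again with no overlap.

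Itgam, the αM chain of macrophages and neutrophils, rose by 2.43 ± 0.41 in experiment 1, 5.37-fold (adjusted p = 0.000292). The young libraries had 10.3, 6.51, 15.6, 11.4 and 8.32 CPM and the aged ones 48.3, 20.9, 117.4 and 36.3 CPM, so aged replicate 3 stood well above its group. Without that library the change was 1.72 and still passed. In experiment 2 the young libraries had 11.7, 40.1, 114.8, 17.4 and 13.01 CPM and the aged ones 98.0, 96.7, 198, 131.6 and 80.6 CPM. The young value of 114.8 CPM belongs to replicate 3, the library that stands apart, and it alone overlaps the aged range. The change was 1.61 ± 0.53 (adjusted p = 0.0683), and without that library 2.55 ± 0.39 (adjusted p = 0.000946). Neutrophil markers summed to 28.7 CPM in it against 6.32 to 9.01 CPM in the other 4 young libraries, and macrophage markers to 406 CPM against 249 to 769 CPM, and their part in the result was not tested.

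Itga4, the α4 chain of lymphocytes and monocytes, was 4.52, 3.72, 4.45, 6.69 and 3.65 CPM in young and 11.1, 15.6, 22.2 and 16.5 CPM in aged ovaries of experiment 1. The change was 1.84 ± 0.28, 3.57-fold (adjusted p = 0.000131). Young libraries of experiment 2 had 7.72, 8.60, 6.39, 5.15 and 3.40 CPM and the aged ones 8.15, 16.6, 22.0, 16.9 and 13.2 CPM. Aged replicate 1 fell inside the young range, and the change of 1.29 ± 0.40 missed the threshold (adjusted p = 0.0522). It passed in 7 of 24 alternatives, among them DESeq2 (adjusted p = 0.0208), limma-voom (0.0223) and edgeR without aged replicate 1 (0.043) or without Auranofin replicate 1 (0.0466) or 3 (0.0202). Over all 24 the adjusted p ran from 0.0107 to 0.132.

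**Figure D2:**
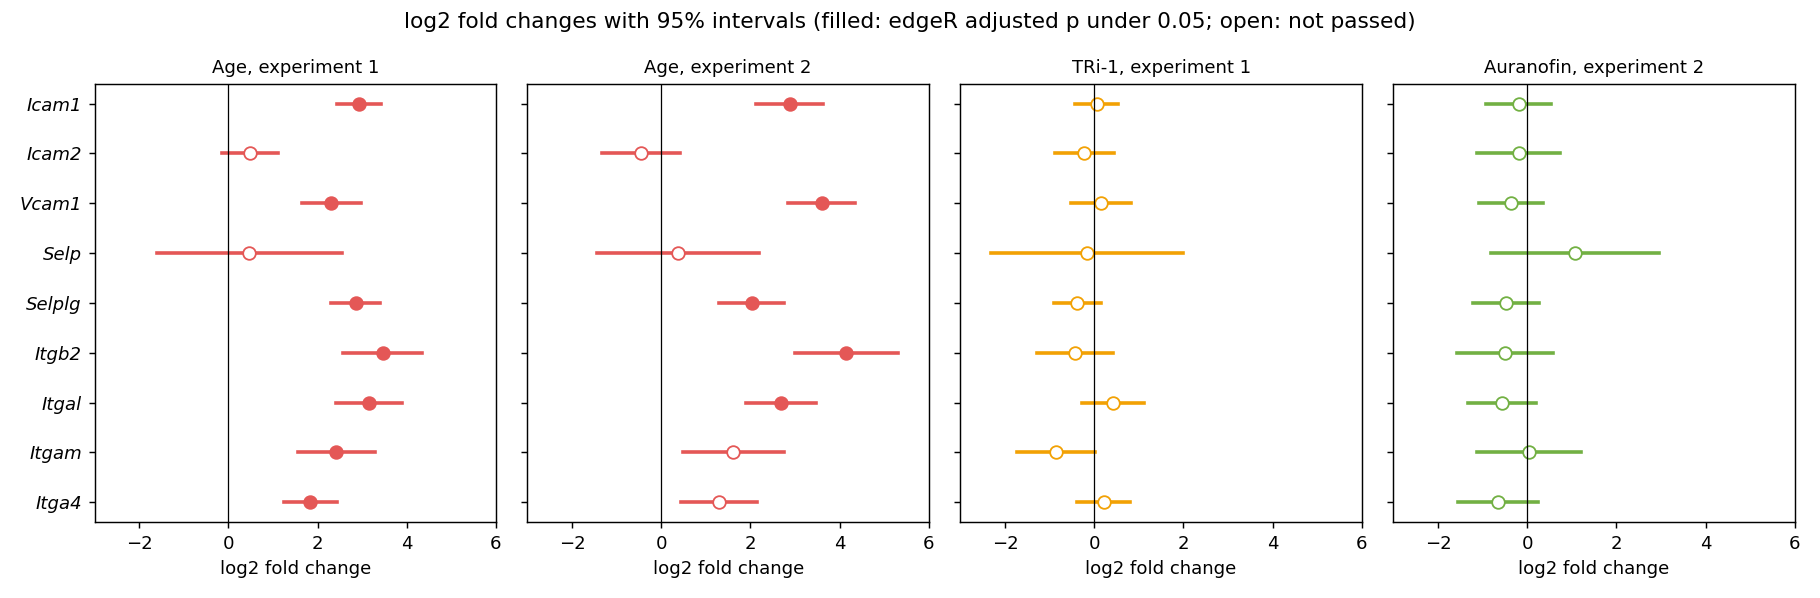
Log2 fold changes (horizontal axis) of the 9 tested genes with 95% intervals, aged against young in both experiments and treated against untreated aged ovaries. Filled points passed an edgeR adjusted p of 0.05 and open points did not. All filled points lie in the 2 age panels, and the intervals of every gene in the 2 treatment panels cross 0.

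The treatment comparisons ask whether thioredoxin reductase inhibitors change the aged ovary. For TRi-1 in experiment 1, 0 of 9 genes passed edgeR's test, where 67 of 16028 genes did (0.418%), and 0 of 9 had an unadjusted p under 0.05, against 16.5% of all genes. DESeq2 called 587 of 16028 genes and limma-voom 24 higher and 73 lower, and each called 0 of the 9. The median change over the 9 was -0.16, beside -0.00 over all genes. Icam1 was 81.8, 40.8, 71.9 and 45.1 CPM in the treated libraries, which spread around the untreated aged values, with a difference of 0.06 ± 0.23 (95% interval -0.43 to 0.54). Vcam1 was 398, 202, 304 and 121 CPM, wider than the untreated range on both sides, with a difference of 0.15 ± 0.32 (-0.52 to 0.83).

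On the leukocyte side, Itgam had the smallest p under TRi-1. Its treated libraries had 32.0, 35.2, 18.6 and 38.4 CPM, below aged replicate 3 and around the other 3 untreated ones. The difference was -0.86 ± 0.41 (95% interval -1.73 to 0.02, adjusted p = 0.313). Over the 23 alternatives it ran from -1.12 to -0.15 and passed in 0 of them. Selplg (31.7, 37.8, 27.8 and 16.2 CPM) differed by -0.38 ± 0.25 and Itgb2 (65.1, 43.1, 50.8 and 17.4 CPM) by -0.43 ± 0.40. Itgal went the other way, at 36.0, 22.6, 16.7 and 16.7 CPM, by 0.43 ± 0.33 (-0.27 to 1.12). Itga4 (21.8, 21.005, 22.0 and 12.1 CPM) differed by 0.21 ± 0.28, Icam2 (24.7, 23.3, 14.9 and 21.1 CPM) by -0.22 ± 0.31 and Selp (0.752, 0.553, 2.48 and 0.543 CPM) by -0.16 ± 1.02. The treated and untreated ranges overlapped for all 9, where 4.50% of genes lay above and 4.57% below without overlap. Every 95% interval spans 0, that of Itgam barely (-1.73 to 0.02), and none excludes a difference.

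For Auranofin in experiment 2, 0 of 9 genes passed, where 3 of 16309 genes did (0.0184%), and 0 of 9 had an unadjusted p under 0.05, against 7.04% of all genes. DESeq2 called 76 of 16309 genes and limma-voom 33, and each called 0 of the 9. The median over the 9 was -0.37, beside 0.02 over all genes. Icam1 was 89.4, 84.5, 64.2 and 35.8 CPM, inside the untreated aged range but for replicate 4, with a difference of -0.19 ± 0.35 (95% interval -0.92 to 0.54). Vcam1 was 172, 227, 69.2 and 226 CPM, a difference of -0.37 ± 0.34 (-1.09 to 0.35). Itgb2 was 78.6, 81.5, 13.9 and 32.5 CPM, lower than every untreated aged library in replicates 3 and 4, with a difference of -0.51 ± 0.51 (-1.58 to 0.57).

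Auranofin replicate 3 had the lowest Vcam1, Selplg, Itgb2, Itgal and Itga4 of its group and the highest Selp. Its Itga4 was 2.97 CPM against 16.2, 9.92 and 10.1 CPM in the other 3, and its Selp 11.96 CPM against 4.65, 7.55 and 0.0832 CPM. Ptprc, the pan-leukocyte gene CD45, was 19.2 CPM in this library and 42.3 to 69.2 CPM in the other 3, and its part in these values was not tested. Itga4 differed by -0.65 ± 0.42 (-1.55 to 0.24) and Selp by 1.07 ± 0.89 (-0.82 to 2.96). Selplg (23.3, 28.9, 19.97 and 35.5 CPM) and Itgal (22.4, 20.7, 11.3 and 14.98 CPM) differed by -0.48 ± 0.35 and -0.57 ± 0.36. Itgam stayed high at 116, 155, 124 and 107.2 CPM, a difference of 0.05 ± 0.55 (-1.12 to 1.21), and Icam2 (10.5, 9.73, 17.5 and 26.5 CPM) differed by -0.19 ± 0.44. Treated and untreated ranges overlapped for all 9, where 1.99% of genes lay above and 1.54% below without overlap.

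Treated aged ovaries were also set against the young ones, with which the untreated comparison shares its young libraries. In TRi-1 ovaries 7 of 9 genes were higher than in young ones, where 21% of genes passed and 10.9% were higher. They were Icam1 (2.98 ± 0.23), Vcam1 (2.47 ± 0.31), Selplg (2.48 ± 0.26), Itgb2 (3.03 ± 0.41), Itgal (3.59 ± 0.35), Itgam (1.57 ± 0.40) and Itga4 (2.04 ± 0.28). In Auranofin ovaries 5 of 9 were higher, where 8.98% of genes passed and 5.42% were higher. They were Icam1 (2.69 ± 0.36), Vcam1 (3.23 ± 0.36), Selplg (1.55 ± 0.35), Itgb2 (3.65 ± 0.55) and Itgal (2.12 ± 0.37). Selplg missed the threshold there with only these 2 groups in the fit (adjusted p = 0.0547, over 24 alternatives 0.000957 to 0.0547). Itgam, at 1.66 ± 0.55 (adjusted p = 0.0748), passed without young replicate 3 (2.60, adjusted p = 0.00115), and Itga4 had 0.64 ± 0.42 (adjusted p = 0.394).

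Whether the age effect differed between experiments was tested in 1 fit of the 27 libraries. Of 17484 genes 0 passed edgeR's test and 2067 (11.8%) had an unadjusted p under 0.05, while DESeq2 called 172 genes and limma-voom 33. Of the 9 members 0 passed with any of the 3 tools. Vcam1 had the largest difference, 1.30 ± 0.47 higher in experiment 2 (95% interval 0.33 to 2.27, adjusted p = 0.259), and it is the gene whose young level was lower in that experiment. Selplg differed by -0.81 ± 0.43, Itgam by -0.80 ± 0.70 and Icam2 by -0.93 ± 0.53. Icam1 differed by -0.04 ± 0.41 (-0.88 to 0.81). The difference between the effects of Auranofin and TRi-1, drugs that were given in different experiments with doses not stated, passed for 0 of 9 members and for 3 of 17484 genes (0.0172%, and 10.9% had an unadjusted p under 0.05), and DESeq2 (93 genes) and limma-voom (30 genes) called 0 members too. Itgal had the smallest p, at -1.01 ± 0.50 (adjusted p = 0.467), being higher than untreated under TRi-1 and lower under Auranofin by values that passed in neither.

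In the order of the 6 groups by mean CPM, all aged means of Icam1, Vcam1, Selplg, Itgb2, Itgal and Itga4 lay above both young means. For Icam1 the aged means were 77.7 ± 29.5 in untreated ovaries of experiment 2, 68.5 ± 24.4 with Auranofin, 59.9 ± 20.1 with TRi-1 and 56.6 ± 11.8 in untreated ovaries of experiment 1. All neighbours among these overlapped, and a gap with no overlap lay above the young means of 10.6 ± 3.37 and 7.49 ± 0.777. Vcam1 ran from 256 ± 120 CPM with TRi-1 to 174 ± 74.2 CPM with Auranofin among aged groups. Its lowest Auranofin library, 69.2 CPM, fell just under the highest young one of experiment 1, 70.1 CPM. A gap with no overlap between the lowest aged group and the next young one was also seen for Selplg (26.9 ± 6.80 against 9.13 ± 4.62 CPM), Itgb2 (44.1 ± 19.99 against 5.40 ± 2.11 CPM) and Itgal (16.8 ± 1.78 against 3.97 ± 1.40 CPM). For Icam1 and Itgal the groups on either side of the gap came from different experiments, so age and experiment cannot be told apart there. The share of all genes with such a gap was not counted. For Itgam the young mean of experiment 2 (39.4 ± 43.7 CPM) stood above the TRi-1 mean (31.1 ± 8.73 CPM). Itga4 had no gap between Auranofin (9.79 ± 5.41 CPM) and young ovaries of experiment 2 (6.25 ± 2.06 CPM), and all neighbours of Icam2 and Selp overlapped.

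The members were next set against markers of the cells that carry them, as differences of log2 CPM within each library. Marker counts stand beside 18.5% of all genes that rose in experiment 1 and 5.86% in experiment 2. Of 8 endothelial markers, 4 rose with age in experiment 1 and 0 in experiment 2, and their summed level ran from 200.2 to 288 CPM in young and 277 to 382 CPM in aged ovaries of experiment 1. In experiment 2 it ran from 153 to 330 CPM in young and 169 to 315 CPM in aged ovaries. Icam1 minus the endothelial mean went from -0.88 ± 0.32 in young to 1.09 ± 0.35 in aged ovaries of experiment 1 and from -0.60 ± 0.26 to 2.07 ± 0.96 in experiment 2. Vcam1 went from 1.65 ± 0.46 to 3.09 ± 0.33 and from 0.24 ± 0.50 to 3.58 ± 0.94. Neither gene had an aged library inside the young range, so both were higher relative to these markers, a comparison that shows unequal change and not where the RNA was made. For Icam2 the same quantity was 0.20 ± 0.73 in young and -0.11 ± 0.15 in aged ovaries of experiment 1, and 0.53 ± 1.10 and -0.06 ± 0.49 in experiment 2, with overlap in both.

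Leukocyte markers moved with the integrin genes, where 18.5% of all genes rose in experiment 1 and 5.86% in experiment 2. Ptprc rose by 1.90 ± 0.25 and 1.92 ± 0.34, from 13.7 to 29.5 CPM in young to 61.3 to 93.0 CPM in aged ovaries of experiment 1, and from 11.9 to 32.7 CPM to 53.9 to 106 CPM in experiment 2. T cell markers rose as 5 of 5 and 4 of 5, B cell markers as 4 of 4 in both, and macrophage markers as 6 of 6 in both. Neutrophil markers rose as 3 of 3 tested and 4 of 6, with Csf3r at 0 in young ovaries of experiment 1. The summed macrophage markers ran from 251 to 575 CPM in young and 1520 to 3950 CPM in aged ovaries of experiment 1, and from 249 to 769 CPM and 1320 to 2590 CPM in experiment 2. Red cell markers (the globin genes and Alas2) moved with age as well, as 5 of 5 in experiment 1 and 1 of 5 in experiment 2. Their sum ran from 18424 to 90439 CPM in young and 109090 to 283526 CPM in aged ovaries of experiment 1, without overlap, and from 2416 to 48971 CPM and 11200 to 47486 CPM in experiment 2, with overlap. With the haemoglobin genes left out of the table, 7 and 5 members passed with age. The part of cell numbers, or of blood in the ovary, in the members' changes was not tested.

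Relative to Ptprc the integrin genes did not behave alike. Itgb2 minus Ptprc was -1.97 ± 0.58 in young and -0.53 ± 0.64 in aged ovaries of experiment 1, and -2.36 ± 1.21 and -0.18 ± 0.56 in experiment 2, with no overlap in either. Itgal minus Ptprc was -3.41 ± 0.49 and -2.18 ± 0.34 in experiment 1, with no overlap, and -2.31 ± 0.58 and -1.65 ± 0.33 in experiment 2, with overlap. Itga4 minus Ptprc was -2.13 ± 0.69 and -2.26 ± 0.36 in experiment 1 and overlapped. In experiment 2 it was lower in aged than in young ovaries, -2.35 ± 0.31 against -1.66 ± 0.19. The ranges there only just parted, with a lowest young value of -1.905 and a highest aged value of -1.908, and Ptprc itself rose by 1.92. Itgam minus Ptprc overlapped between young and aged in both (-1.01 ± 0.60 and -0.75 ± 1.18, then 0.44 ± 1.24 and 0.61 ± 0.35). It was higher with Auranofin, 1.55 ± 0.76, than in untreated aged ovaries, with no overlap, while Itgam itself had 107.2 to 155 CPM with Auranofin and Ptprc 19.2 to 69.2 CPM. Every other ratio of a member to its marker overlapped between treated and untreated aged ovaries, for both drugs. How often genes at large part from Ptprc in this way was not counted. Selplg minus Ptprc was -1.99 ± 0.45 and -1.09 ± 0.47 in experiment 1 and -1.23 ± 0.77 and -1.05 ± 0.26 in experiment 2, with overlap in both. In experiment 1, Itgal minus Itgam was -2.39 ± 0.76 in young, -1.43 ± 1.11 in aged and -0.45 ± 0.59 in TRi-1 ovaries, whereas experiment 2 gave -2.75 ± 1.36 in young, -2.26 ± 0.29 in aged and -2.88 ± 0.44 in Auranofin ovaries. Young and aged, and treated and untreated aged, libraries overlapped in both.

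**Figure D3:**
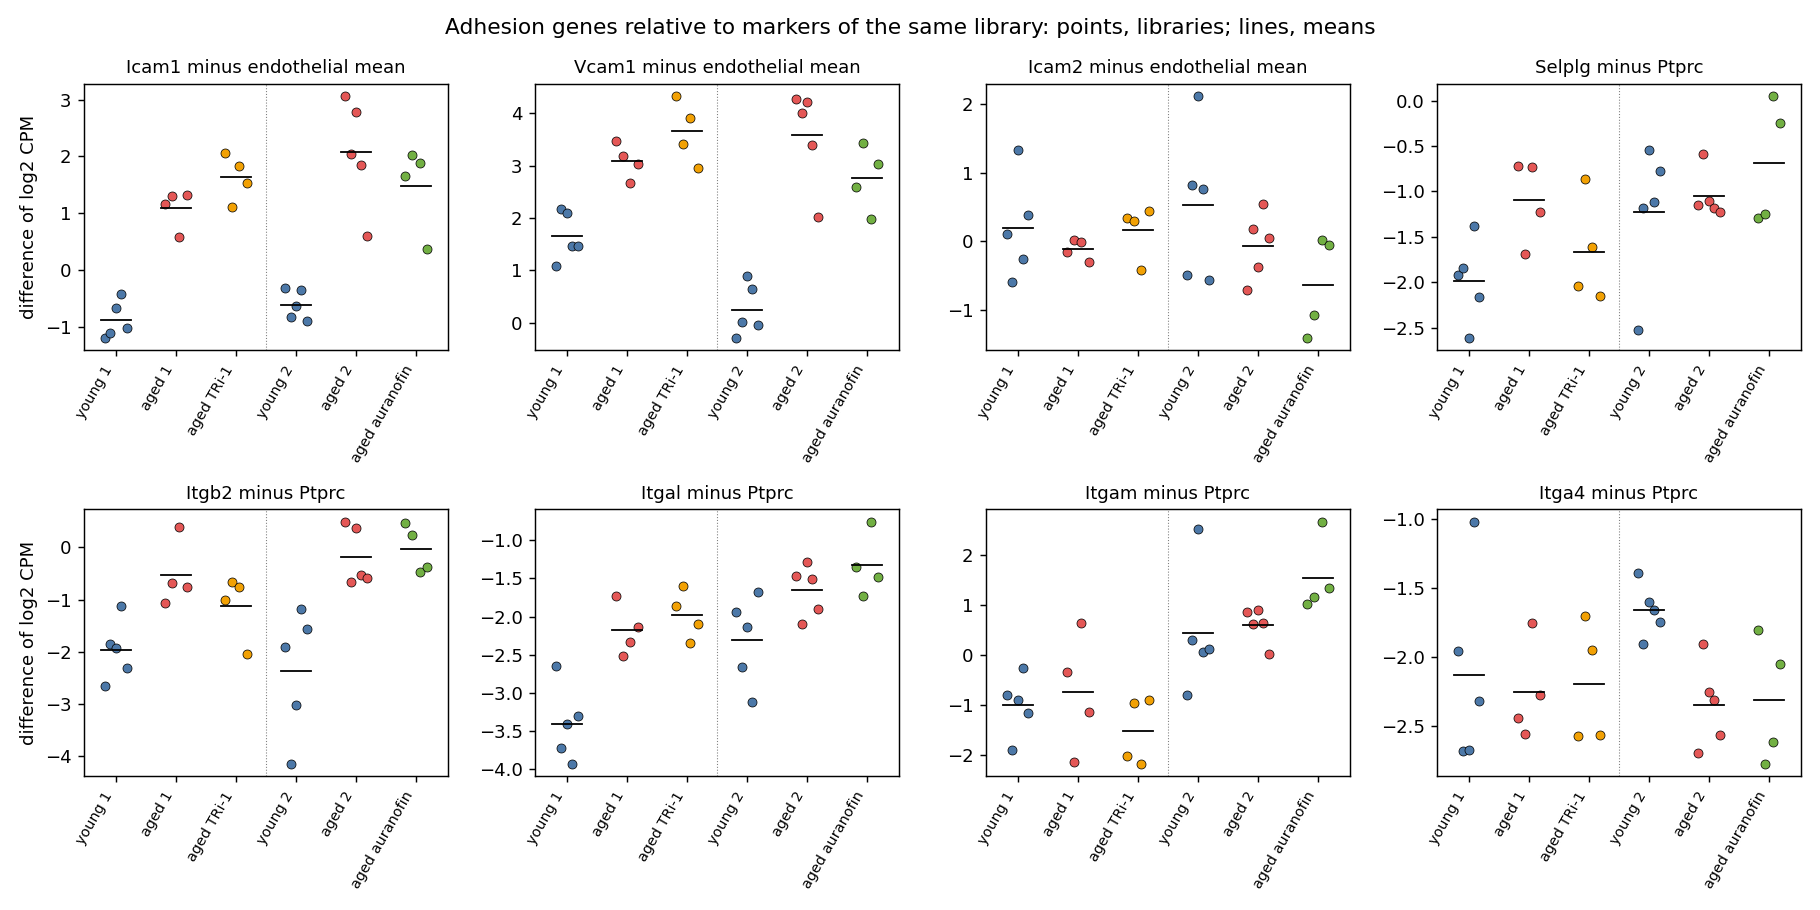
Difference of log2 CPM (vertical axis) between a member and a reference of the same library: the mean of 8 endothelial markers for Icam1, Vcam1 and Icam2, and the leukocyte gene Ptprc for the others. Points are libraries and lines are group means. Icam1 and Vcam1 rise clear of the young libraries in both experiments, Icam2 does not, and Itgb2 rises against Ptprc while Itga4 does not.

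Other genes of leukocyte adhesion were read from 6 lists. Of all genes tested, 18.5% rose and 16.4% fell in experiment 1, and 5.86% rose and 4.59% fell in experiment 2. No list was tested against these shares. The list of integrin activation proteins holds genes of the route from chemokine signals to integrin opening and regulators of that route. Of these, 8 of 10 rose with age in experiment 1 and 5 of 10 in experiment 2, with medians of 1.23 and 0.95. Cytip, a leukocyte regulator of cytohesin, rose by 3.13 ± 0.31 and 3.15 ± 0.33, and Apbb1ip (RIAM, which links Rap1 to talin) by 1.61 ± 0.23 and 1.45 ± 0.24. Rap1b, a small GTPase of the same route, rose by 1.31 ± 0.16 and 0.73 ± 0.17, and Fermt3, the kindlin of blood cells, by 2.69 ± 0.64 and 3.19 ± 0.67.

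Of the other integrin chains, 3 of 9 tested rose and 1 fell in experiment 1, and 2 of 10 rose and 1 fell in experiment 2, with medians of 0.30 and -0.22. The shares over all genes were 18.5% and 5.86% higher, and 16.4% and 4.59% lower. Those that rose in both pair in leukocytes: Itgax, the αX partner of Itgb2, by 4.68 ± 0.43 and 3.77 ± 0.54, and Itgb7, a partner of Itga4, by 2.23 ± 0.31 and 1.94 ± 0.36. Itga6, a laminin receptor chain of epithelium and other cells, fell by 0.65 ± 0.19 and 1.80 ± 0.49 on the log2 scale.

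Of the list of selectin ligands, Glycam1, a mucin-like protein of high endothelial venules, had 0 counts in young ovaries of experiment 1 and 6.27 to 174 CPM in aged ones, at least 1326-fold higher by a floor of 3 counts over the young group. In experiment 2 it was 0.160 ± 0.357 CPM in young and 54.8 ± 44.5 CPM in aged ovaries (adjusted p = 0.000272). With TRi-1 it was 73.0 ± 69.2 CPM and with Auranofin 9.67 ± 7.74 CPM. The Auranofin difference of -2.51 ± 0.81 did not pass (adjusted p = 0.498). The tested genes of this list had median age changes of 0.45 in experiment 1 and 0.06 in experiment 2, far below those of Glycam1. The first median has Glycam1 set at its bound.

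Selectin ligand enzymes rose as 3 of 10 in experiment 1 and 1 of 10 in experiment 2, with medians of 0.18, unchanged when Fut7 is set at its bound, and 0.33. Beside these and the next counts, 18.5% and 5.86% of all genes rose, and 16.4% and 4.59% fell. B4galt1, a galactosyltransferase, rose by 0.82 ± 0.20 and 0.72 ± 0.17. Fut7, the fucosyltransferase of sialyl Lewis x, had 0 counts in young ovaries of experiment 1 and 1.22 ± 0.60 CPM in aged ones, at least 14.5-fold higher, and in experiment 2 its change of 2.67 ± 1.05 did not pass (adjusted p = 0.132). B3gnt3 rose by 3.46 ± 1.08 in experiment 1 and had the other sign in experiment 2, -1.19 ± 0.90 (adjusted p = 0.478), with a difference between experiments of -4.66 ± 1.46 (adjusted p = 0.199). Junction and transmigration proteins rose as 4 of 8 and fell as 1 of 8 in experiment 1 and passed as 0 of 8 in experiment 2, with medians of 0.50 and 0.27. Cd47 (0.90 ± 0.16), F11r (0.97 ± 0.22) and Cdh5 (1.14 ± 0.27) rose in experiment 1. In experiment 2 F11r had 0.68 ± 0.23 (adjusted p = 0.0818) and Cd47 0.62 ± 0.25 (adjusted p = 0.145). The difference between experiments was -1.48 ± 0.41 for Cdh5, the VE-cadherin of endothelial junctions (adjusted p = 0.138). Of 6 other adhesion receptors 1 rose in each experiment, the hyaluronan receptor Cd44, by 1.79 ± 0.27 and 2.94 ± 0.49.

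No gene of the 6 lists passed under TRi-1 or Auranofin by edgeR, where 0.418% and 0.0184% of all genes did. The smallest p under TRi-1 belonged to Tln1, the talin that opens integrins, at -0.59 ± 0.18 (adjusted p = 0.128), to Itga1, a collagen receptor chain, at -1.06 ± 0.34 (adjusted p = 0.143), and to the activation adaptor Fyb, at 0.62 ± 0.22 (adjusted p = 0.173). Under Auranofin, after Glycam1, St3gal6 had -0.76 ± 0.28 (adjusted p = 0.581).

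**Figure D4:**
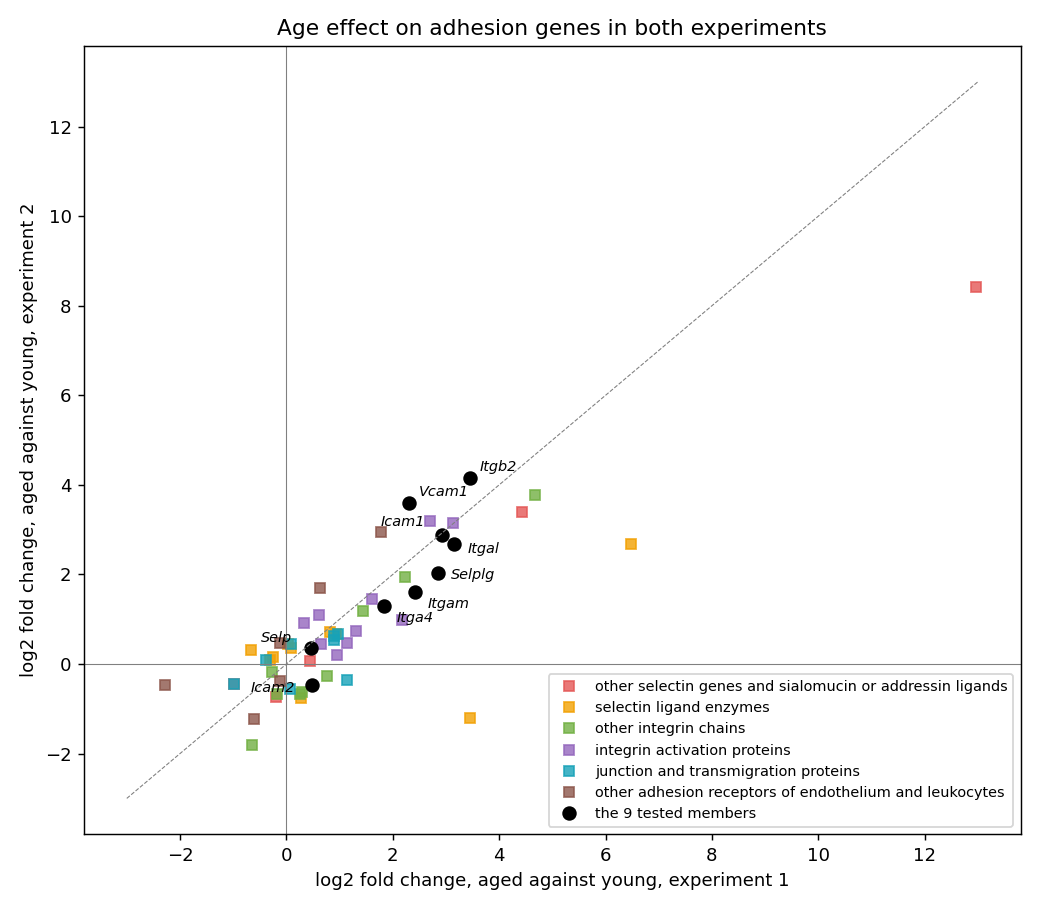
Log2 fold change of aged against young ovaries in experiment 1 (horizontal axis) and experiment 2 (vertical axis) for the 9 tested members (black circles, named) and the genes of 6 adhesion lists (coloured squares). The dashed line marks equal change. Icam1, Vcam1, Selplg, Itgb2 and Itgal lie at 2.02 or more in both, and the square at the far right is Glycam1, which like Fut7 had 0 counts in young ovaries of experiment 1, so that their horizontal positions depend on the prior count.

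To see which genes varied with each member from mouse to mouse, log2 CPM of 27 libraries were taken as deviations from their group means and compared with 11339 other genes by Pearson's r. These are descriptions, and the values share library, depth and cell makeup. The genes named have the highest of 11339 values for each member, and how high such values lie by chance was not tested. Icam1 was most like Peli1 (0.77), an E3 ligase of Toll-like receptor signalling, Clec4n and Clk4 (each 0.74). Vcam1 was most like Tifa (0.71), an adaptor of NF-kB signalling, Gpr65 (0.70) and Pde1b (0.69), and Icam2 like Dmac2 (0.84), Dlg5 (0.79) and Acat2 (0.77). Itgb2 was most like Lcp1 (0.82), the leukocyte plastin, Cd300ld (0.81) and Gnptab (0.80), and Itgam like Arg1 (0.87), Fam20c (0.86) and Tagln2 (0.84). Selplg was closest to Rhog (0.78), complement C3 (0.77) and Clec4a3 (0.76), Itga4 to Lair1 (0.83), Slc30a1 (0.81) and Ear2 (0.77), and Itgal to Tep1 (0.74), Ddi2 (0.74) and Cd38 (0.71). Selp was closest to Zfp747 (0.83), Mapk1ip1 (0.79) and Hspa1b (0.78), with between 0 and 133 counts a library, and Sele had too few counts for such a list.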

How the data were processed

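The authors deposited 1 table of raw read counts, whole numbers by gene, for 27 ovary libraries, with 0 columns of other samples. Libraries were made from polyA RNA with a Lexogen QuantSeq kit, which reads the 3' end, per the labels' protocols. RSEM 1.2.3, DESeq2 and the mm10 build are named, with no role, per the submitters' processing notes. Annotation, filters and strand are not given in the sources used here. GENCODE M21 matched 51596 of 51789 gene IDs. Groups came from the labels, and replicates were taken as separate mice, which the labels do not state in full. If they are not, p-values measure only the spread between samples. The 48 pairs within groups all differed, with a chi-square per gene of 22.4 to 227.

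Counts were tested with edgeR 4.0.16 in R 4.3.3 (TMM, filterByExpr, quasi-likelihood F tests, 1 mean per group, 3 groups of an experiment in 1 fit, difference tests in 1 fit of 27 libraries), with Benjamini-Hochberg adjusted p over all genes and 0.05 as the threshold. Every adjusted p without a tool's name is from edgeR. Log2 CPM use a prior count of 2, and the likeness genes a mean of at least 5 CPM. Tests were checked on simulated counts. Other settings tried were DESeq2 1.42.0, limma-voom (limma 3.58.1) with quality weights, RLE size factors, a replicate block, no filter or one of 5 CPM, fits of 2 groups or of all libraries, and dropping each library in turn. Leaving out haemoglobin genes or the libraries that stood apart was chosen after seeing the data. Floors of 3 counts cover counting error only.

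The members and lists were chosen with earlier results of these data known. The text names all members, up to 3 called genes with the smallest p per list and comparison, or up to 2 where none passed, and the 3 genes most like each member. A result that this rule would name is not reported here. Markers named by library, and the Cdh5 difference between experiments, were chosen after their values were seen. Plots used matplotlib 3.10.9.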

Additional observations from a re-analysis of the deposited data

Results flagged for a closer look

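In 7 of 58 groups of 4 or 5 values 1 library stood far from the others by Dixon's test. The chance rate of about 1 in 20 holds for normally distributed values, so the 7 cannot be set against it. In 3 of the 7 groups Sele had a count in a single library, which this test flags whatever its size. Its level there was 0.123 CPM in aged replicate 1 of experiment 1, 0.129 CPM in aged replicate 1 of experiment 2 and 0.0899 CPM in Auranofin replicate 3, each from 1 or 2 counts. Selp was 2.48 CPM in TRi-1 replicate 3, above the other 3 libraries. Itgam was 114.8 CPM in young replicate 3 of experiment 2, the library that stood apart. Itga4 was 6.69 CPM in young replicate 4 of experiment 1, above its group, and 12.1 CPM in TRi-1 replicate 4, below its group.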

How the results depend on the processing

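With age, Icam1, Vcam1, Selplg, Itgb2 and Itgal passed in all 23 alternatives of experiment 1 and all 24 of experiment 2, and Itgam and Itga4 in all 23 of experiment 1. Each passed in 7 of 24 in experiment 2. Under TRi-1 and Auranofin 0 members passed in any. Counts of genes moved more. TRi-1 genes numbered 587 with DESeq2, 167 with no filter, 172 at 5 CPM, 0 with 2 groups, 2 with all libraries. Auranofin genes numbered 76 with DESeq2, 33 with limma-voom, 10 with all libraries and 8 without the libraries that stood apart. Age in experiment 2 gave 2642 genes with limma-voom. Auranofin against young gave 2329 with DESeq2, 2677 with limma-voom, 733 with 2 groups and 2398 with all libraries. The age difference gave 172 genes with DESeq2, 33 with limma-voom, 6 at 5 CPM, 1 without haemoglobin genes and 4 without the libraries that stood apart, and the treatment difference 93, 30, 5, 3 and 14. Where a count moved, the cause was not tested.

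Replicate numbers were not taken to pair the samples. Deviations of same-numbered libraries correlated at -0.147 to 0.068 in experiment 1 and -0.246 to 0.433 in experiment 2. Libraries of unlike number gave -0.212 to 0.278 and -0.403 to 0.433, and such ranges cannot exclude pairing. With a replicate block 1 gene passed for TRi-1, 11 for Auranofin, 2229 for TRi-1 against young and 1 for the treatment difference, Itgam passed with age in experiment 2 (2.04, adjusted p = 0.0106) and for Auranofin against young (1.99, adjusted p = 0.0213), Selp had -0.45 with age in experiment 2 and 0.16 under TRi-1, and Itgam had -0.052 under Auranofin.

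Signs that turned were of values that did not pass. With limma-voom Selp had -0.18 and -0.32 with age and 0.29 under TRi-1, Icam1 had 0.14 under Auranofin and 0.11 in the treatment difference, Icam2 had -0.34 and Itgb2 0.24 in the treatment difference, and Itgam had 0.63 in the age difference. Without the libraries that stood apart the values were 0.027 for Icam1 under Auranofin, 0.14 for Itgam in the age difference, -0.32 for Icam2 and 0.077 for Itgb2 in the treatment difference.

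Leaving out 1 library at a time gave 4794 to 5511 genes for age in experiment 1, 1171 to 2104 in experiment 2, 0 to 164 for TRi-1, 3 to 5 for Auranofin, 2383 to 3710 for TRi-1 against young, 906 to 1840 for Auranofin against young, 0 to 25 for the age difference and 2 to 10 for the treatment difference. TRi-1 genes fell to 0 without aged replicate 3, TRi-1 replicate 1 or TRi-1 replicate 4. Members called stayed at 7 for age and TRi-1 against young in experiment 1 and ran from 5 to 6 in experiment 2. Log2 values ran from -0.12 to 0.64 for Selp with age in experiment 2, -0.91 to 0.22 for Selp, -0.082 to 0.24 for Icam1 and -0.089 to 0.43 for Vcam1 under TRi-1, and -0.49 to 0.88 for Selp in TRi-1 against young. Under Auranofin they ran from -0.37 to 0.026 for Icam1 and -0.066 to 0.29 for Itgam. In the age difference they ran from -0.19 to 0.14 for Icam1, -1.05 to 0.14 for Itgam and -0.60 to 0.34 for Selp, and in the treatment difference from -0.35 to 0.21 for Icam2, -0.51 to 0.27 for Itgb2 and -0.37 to 0.058 for Selplg. Depth limits Sele and Selp most.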
